A study of Arabidopsis thaliana with 12 samples.

Results

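The genes described here are those of Arabidopsis thaliana whose RNA was lower in seedlings given the 2 higher doses of Rose Bengal (RB) and close to the untreated level at the lowest dose. They were chosen from the deposited normalized counts, which are read counts divided by 1 size factor per library. A gene was taken when its untreated mean was at least 20, its log2 ratio of means, computed as log2((mean + 1)/(untreated mean + 1)), was at or under -1 at 400 µM and over -0.3 at 10 µM, and its highest library at 100 µM and at 400 µM lay below its lowest untreated library. The rule took 65 of the 13307 genes in the table, and 64 of the 65 code for protein. Since the rule used all 12 libraries, the values of the 65 genes in them are a description and carry no test.

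RNA came from whole wild type seedlings of the Col-0 ecotype, 2 weeks old. The seedlings were held in water and then moved to RB at 0, 10, 100 or 400 µM for 2 h in the light, with 3 libraries per dose. Every sample was given the same light intensity, which the study terms low light. The study's methods for RNA describe each replicate as a pool of whole seedlings, and the sources used here do not say whether the 3 pools of a dose came from separate plates or days. In its list of data sets the study gives another treatment for this series, the photosynthesis inhibitor DCMU; the title, labels and dose names all say RB and were followed, so every value here rests on them. In whole seedlings, fewer cells of a type and less RNA per cell cannot be told apart.

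RB is a photosensitiser: in the light it passes energy to molecular oxygen and so makes singlet oxygen, a short-lived oxidant that attacks lipids, proteins and RNA near the place where it is formed. Plant cells answer singlet oxygen with fast changes in nuclear transcripts, and a transcript with a short lifetime drops quickly once its synthesis stops. Proteins of the cell wall, the apoplast and the membranes of the secretory path are made with a hydrophobic stretch near their N-terminus, which directs the growing chain to the endoplasmic reticulum, whereas proteins of the chloroplast carry a transit peptide of another kind.

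Library totals ran from 1499791 to 3608636 reads, and 1 read was worth 0.613 to 1.45 normalized counts, so a member near the minimum level of 20 rested on few reads and its values moved in coarse steps. No replicate pair was within sampling noise, with chi-square values of 3.43 to 11.1 per gene. The libraries of a dose were spread along a common axis, on which replicate 1 at 10 µM (0.34), replicate 1 at 100 µM (0.67) and replicate 2 at 400 µM (0.27) had the highest scores of their doses. At 100 µM the other wells stood at -0.40 and -0.26, and at 400 µM, where the wells were less far apart, at -0.23 and -0.04. That axis took up 35.4% of the deviation from the group means in 5132 genes, where the next took up 14.1%. The first 2 of these libraries were high for many of the 65 genes, and values without them are given for the set and for the genes they move most.

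A feature that the rule did not use was the start of the encoded protein. Of the 64 members that code for protein, 30 (46.9%) had a stretch of 10 residues with a mean Kyte-Doolittle hydropathy of at least 2 within the first 30 residues, where a higher hydropathy is more hydrophobic. The same stretch was found in 17.3% of the 7124 protein-coding genes with an untreated mean of 20 or more. The coding starts below, read from the RefSeq annotation of TAIR10.1, show it for members whose products are exported or set in a membrane. Capitals mark the 30 bases that code for the most hydrophobic 10 residues. MYB12, a transcription factor, is shown for contrast, since its best stretch has a mean hydropathy of 0.22.
RNS1 (chr2:873714-873803, plus strand): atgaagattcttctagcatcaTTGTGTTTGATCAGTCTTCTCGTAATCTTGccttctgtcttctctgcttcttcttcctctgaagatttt
XTH15 (chr4:8138107-8138196, minus strand): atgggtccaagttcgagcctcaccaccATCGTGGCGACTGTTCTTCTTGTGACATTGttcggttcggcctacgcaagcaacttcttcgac
GER3 (chr5:6975861-6975950, minus strand): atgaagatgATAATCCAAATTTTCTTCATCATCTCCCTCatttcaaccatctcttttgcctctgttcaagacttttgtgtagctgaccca
AGP17 (chr2:9844411-9844500, plus strand): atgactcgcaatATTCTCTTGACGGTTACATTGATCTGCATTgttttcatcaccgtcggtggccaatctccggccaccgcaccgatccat
COB (chr5:24513843-24513932, minus strand): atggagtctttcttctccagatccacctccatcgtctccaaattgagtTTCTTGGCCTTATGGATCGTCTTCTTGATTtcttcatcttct
AT1G17860 (chr1:6149343-6149432, plus strand): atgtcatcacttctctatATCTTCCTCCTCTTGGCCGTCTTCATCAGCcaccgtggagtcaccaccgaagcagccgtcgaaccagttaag
CYP79F2 (chr1:5605231-5605320, plus strand): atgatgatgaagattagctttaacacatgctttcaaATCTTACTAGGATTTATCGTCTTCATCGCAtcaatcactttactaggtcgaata
MYB12 (chr2:19476438-19476527, plus strand): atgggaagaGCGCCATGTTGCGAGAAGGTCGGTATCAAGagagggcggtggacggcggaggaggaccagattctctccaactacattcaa

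The mean hydropathy of the marked stretch was 3.39 in RNS1, 2.89 in XTH15, 2.76 in GER3, 3.02 in AGP17, 3.11 in COB, 3.12 in AT1G17860 and 3.23 in CYP79F2. The share of members with such a stretch lay above that of all genes at the same level at every minimum tried: 54.7% against 26.4% at a minimum of 1.5, 42.2% against 12.7% at 2.5, and 28.1% against 6.32% at 3. Genes that were lower at 10 µM had it as well. Of the 253 protein-coding genes that met the other conditions of the rule but were lower already at 10 µM, 47.4% had the stretch at the minimum of 2. Of the 45 protein-coding genes chosen by the mirrored rule for rising RNA, 17.8% had it. At a minimum of 3, the share was 17.0% in the genes lower already at 10 µM and 13.3% in the rising genes. Both then lay between the members (28.1%) and all genes of that level (6.32%). The median protein length of the members was 382.5 residues against 374 for genes of that level.

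**Figure D1:**
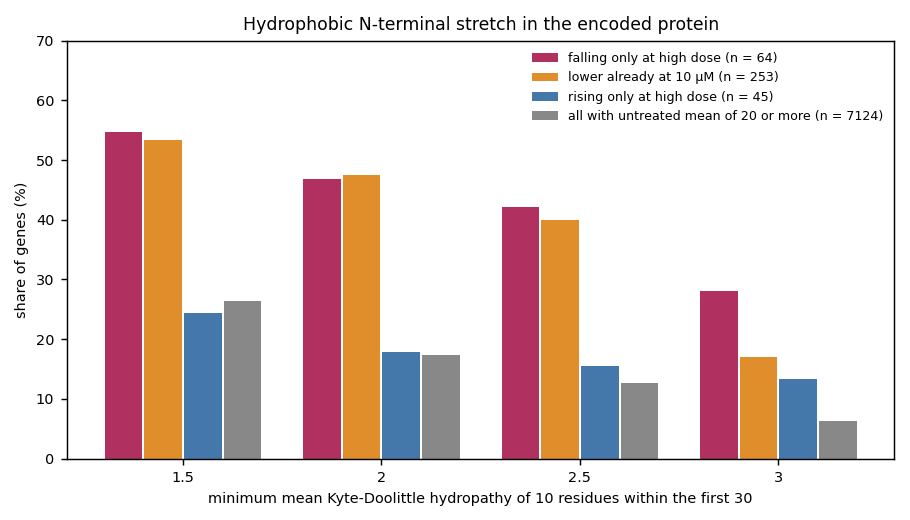
Share of protein-coding genes (%, y axis) whose first 30 residues hold a stretch of 10 residues at or above a minimum mean Kyte-Doolittle hydropathy (x axis), for the 64 coding members, the 253 genes lower already at 10 µM, the 45 genes rising only at the high doses and all 7124 genes with an untreated mean of 20 or more. At a minimum of 2 the bars stand at 46.9%, 47.4%, 17.8% and 17.3%, so both sets of lower genes lie well above the other bars.

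Across the 65 genes, untreated means ran from 20.5 to 761 normalized counts with a median of 55.8. The median log2 ratio of means was -0.13 at 10 µM, -0.92 at 100 µM and -1.20 at 400 µM. Most of the drop in these medians thus lay between 10 and 100 µM, a pattern that the rule's conditions at those doses favour. The median gene had reached 85.4% of its fall in mean normalized count at 400 µM by 100 µM, and 26 genes had reached at least 90% of it. At 100 µM, 28 genes had a log2 ratio at or under -1 already. Without RB 100 µM replicate 1, the median at 100 µM was -1.05 and 34 genes were at or under -1. The share without that library was taken on the log2 scale, with a median of 89.2% and 31 genes at 90% or more. It is therefore not comparable with the share of the fall in counts. At 400 µM, 57 genes lay between -1.5 and -1 and 8 lay under -1.5, the lowest at -3.2.

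Read library by library, the median log2 ratio of the members to their untreated mean was -0.10, 0.01 and 0.06 in the untreated libraries. It was 0.05, -0.21 and -0.15 at 10 µM, then -0.69, -1.11 and -1.18 at 100 µM, and -1.33, -1.15 and -1.29 at 400 µM. RB 10 µM replicate 1 and RB 100 µM replicate 1 were thus the least lowered libraries of their doses. As a share of all normalized counts, the 65 genes took 0.269 to 0.30% untreated, 0.252 to 0.332% at 10 µM, 0.104 to 0.176% at 100 µM and 0.0979 to 0.121% at 400 µM. The libraries at 100 and 400 µM overlapped in this share, and both doses lay below the untreated and 10 µM libraries.

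**Figure D2:**
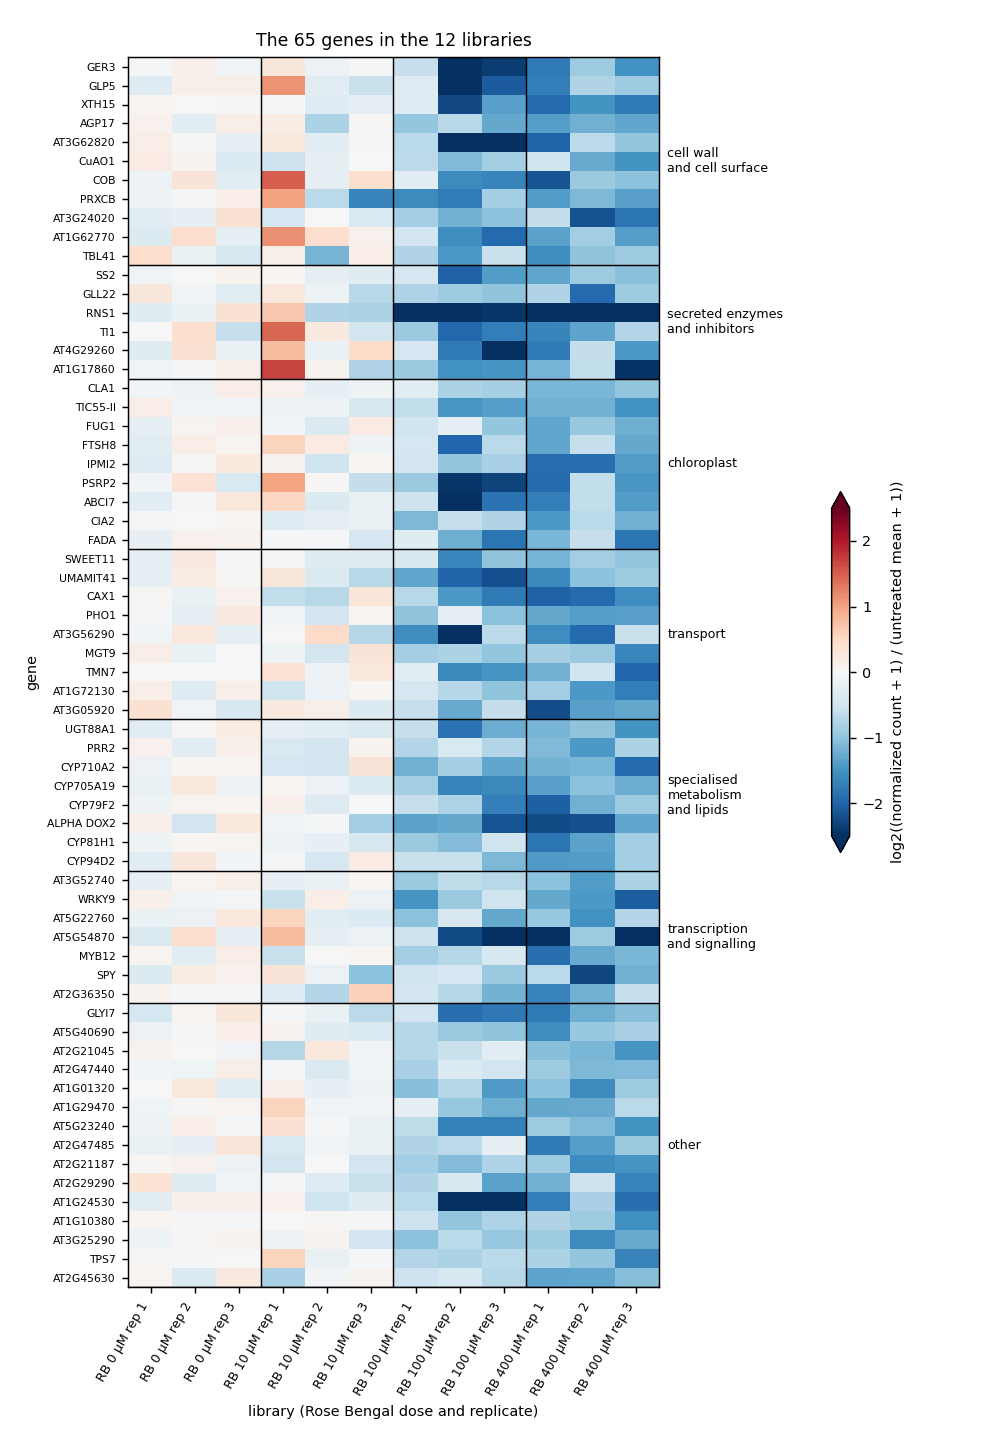
Log2 ratio of each library's normalized count to the untreated mean (1 added to both) for the 65 genes (rows, by role) in the 12 libraries (columns, by dose); red is higher, blue is lower, and the colour scale ends at 2.5 in either direction. The rows turn blue at 100 µM, where RB 100 µM replicate 1 stays paler than the other wells of its dose (median -0.69 against -1.11 and -1.18).

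Fold changes below are log2 values with their standard error from edgeR's quasi-likelihood model fitted to the raw counts of all genes, and the call rule is an adjusted p (Benjamini-Hochberg) below 0.05. At 400 µM against 0 µM, 54 of the 65 members were called lower, where 6.43% of all genes tested were; 34 of the 54 kept the call whichever single library was left out. At 100 µM, 34 members were called lower beside 4.22% of all genes. That count fell to 21, 19 and 20 without untreated replicate 1, 2 or 3, and to 17 without RB 100 µM replicate 3. Both counts follow from the rule and nothing is read from them. The same holds for the members' calls against 0 µM given below by role or by gene. The median fold change of the members was -1.25 at 400 µM and -0.94 at 100 µM, against -0.04 for all genes at each dose.

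At 10 µM no member was called in either direction by edgeR, where 3.73% of all genes were. None reached an unadjusted p under 0.05, where 14.5% of all genes did, and DESeq2 called 0. The median was -0.15 against 0.02 for all genes. This too follows in part from the rule, and it does not show that 10 µM left the members as they were. Of the 65, 19 had a mean above the untreated one and 46 did not, and in TIC55-II, XTH15 and CIA2 every 10 µM library lay below every untreated one. RB 10 µM replicate 1 was the highest of its dose in 40 members. Without it, 17 members had both remaining wells below all untreated wells, and 16 would have missed the condition at 10 µM. Leaving out a library that was high in many members favours such counts. The share of all genes with wells so separated from the untreated ones was not computed, and nothing is read from these counts.

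The genes nearest the thresholds show how finely the set was cut. SWEET11 at -1.005 and FTSH8 at -1.01 lay just inside the limit at 400 µM, and maMYB at -0.995 and AT4G17140 at -0.988 just outside. At 10 µM, AT2G21187 at -0.294 and UGT88A1 at -0.287 were inside, and AT1G49010 at -0.303 and TZP at -0.304 outside. By level, AT3G05920 with an untreated mean of 20.5 and AT2G36350 with 21.1 were inside, and AT3G11600 with 19.2 and AT2G47540 with 19.1 outside. Without the condition at 10 µM the rule took 321 genes, of which the 256 others were lower already at that dose.

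Roles were given to the members by hand, and no share of all genes was computed for any role. Proteins of the cell wall and cell surface made up 11 of the members. The most abundant was GER3, a germin-like protein of the extracellular matrix. It stood at 744, 828 and 712 normalized counts untreated and at 926, 686 and 741 at 10 µM. At 100 µM it gave 507, 128 and 146, and at 400 µM 224, 413 and 265. The 10 µM libraries overlapped the untreated ones, and RB 100 µM replicate 1 was above all 3 libraries at 400 µM. The fold change was -1.53 ± 0.35 at 100 µM and -1.35 ± 0.35 at 400 µM (SE). Without replicate 1 the log2 ratio of means at 100 µM was -2.47, and the level at 400 µM was then above that at 100 µM. GER1, its relative with an untreated mean of 2049.6, had -0.41 at 10 µM, -1.03 at 100 µM and -1.0 at 400 µM, and so was lower at the first dose as well.

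XTH15, a xyloglucan endotransglucosylase/hydrolase that cuts and rejoins xyloglucan chains of the wall, had close untreated libraries and a wide spread at 100 µM. It had 124, 118 and 116 normalized counts untreated, 115, 95.6 and 100.3 at 10 µM, 95.2, 24 and 46.1 at 100 µM, and 30.3, 41.8 and 34.6 at 400 µM. All 10 µM libraries lay under the lowest untreated one, and the single high library at 100 µM was again replicate 1, without which the log2 ratio of means at that dose went from -1.10 to -1.74. Its fold change of -1.75 ± 0.31 at 400 µM was the lowest of the 11 genes of the wall and surface.

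AGP17, an arabinogalactan protein, had 90, 68.4 and 92.3 normalized counts untreated and 95.3, 47.8 and 85.7 at 10 µM. It had 42.1, 51.5 and 34.0 at 100 µM and 31.5, 35.7 and 33.6 at 400 µM, with a fold change of -1.31 ± 0.26 at 400 µM. CuAO1, a copper amine oxidase that oxidises polyamines, had -1.06 ± 0.27, and the dirigent-like protein AT3G24020 had -1.41 ± 0.34. All 3 were called lower at 400 µM, as were GER3, XTH15 and the invertase/pectin methylesterase inhibitor AT1G62770.

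The other 5 genes of the wall and surface were not called at 400 µM. They were GLP5 (-1.08 ± 0.47), COB (-1.31 ± 0.44), PRXCB (-1.33 ± 0.46), AT3G62820 (-1.13 ± 0.41) and TBL41 (-1.19 ± 0.43), and their standard errors were the largest of the 11. COB encodes a glycosylphosphatidylinositol-anchored protein needed for oriented cell expansion. Its libraries read 52.5, 72.0 and 47.7 untreated, 165, 48.4 and 78.5 at 10 µM, 47.2, 18.3 and 17.6 at 100 µM, and 12.1, 29.5 and 27.6 at 400 µM. One library, RB 10 µM replicate 1, held more than 2 times the highest untreated value. GLP5, a germin-like protein, showed the same high library, with 536 normalized counts there against 202 and 167 in the other wells at 10 µM and 198, 268 and 273 untreated. PRXCB, a class III peroxidase of the wall, had 106 normalized counts there against 32.5 and 16.0 in the other wells.

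**Figure D3:**
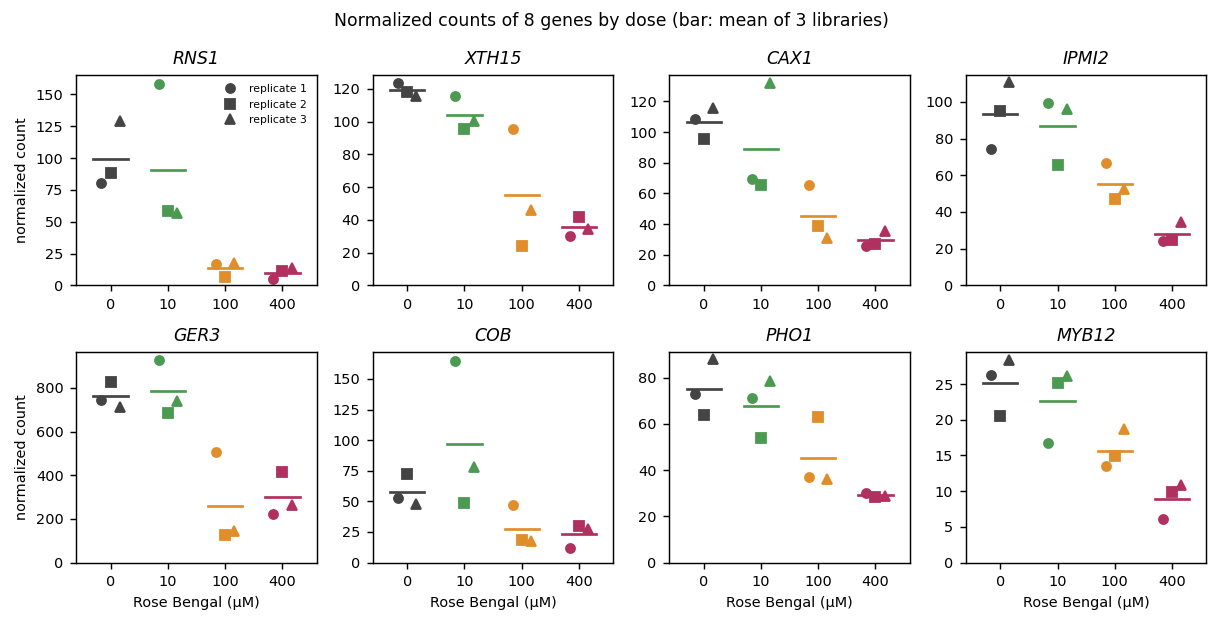
Normalized counts (y axis, from 0) of 8 members in each of the 12 libraries by RB dose in µM (x axis, not to scale); symbols mark replicate number and bars the mean of 3 libraries. In RNS1 the 100 µM wells lie at 6.86 to 17.6 and the 400 µM wells at 4.85 to 13.8, whereas in IPMI2, PHO1 and MYB12 every well at 400 µM lies below every well at 100 µM.

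Secreted enzymes and inhibitors numbered 6. RNS1, a secreted ribonuclease known to be induced by phosphate starvation and wounding, had the largest drop of all 65 genes. It had 80.6, 88.2 and 129 normalized counts untreated and 158, 58.2 and 56.7 at 10 µM. At 100 µM only 16.9, 6.86 and 17.6 were left, and at 400 µM 4.85, 11.1 and 13.8. The fold change was -2.80 ± 0.41 at 100 µM and -3.28 ± 0.44 at 400 µM, and the wells of those doses overlapped. At 10 µM its mean of 91.0 ± 58.0 (SD, n = 3) hid a split, with 1 well above all untreated wells and 2 wells below them.

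The remaining secreted proteins were SS2 (strictosidine synthase 2), the GDSL-type lipase GLL22, the acid phosphatase AT4G29260 and the protease inhibitors TI1 and AT1G17860. TI1 had 75.0, 99.2 and 49.7 normalized counts untreated, 203, 88.3 and 53.8 at 10 µM, 38.8, 18.3 and 22.0 at 100 µM, and 23.0, 29.5 and 44.4 at 400 µM. AT1G17860, a Kunitz-type inhibitor, had 156 in RB 10 µM replicate 1 and 27.6 to 52.7 in the other 10 µM and the untreated wells. Each of the 6 genes had its highest 10 µM value in that library, as did 40 of the 65 members. At 400 µM the fold change was -1.08 ± 0.26 in SS2, -1.12 ± 0.27 in GLL22 and -1.24 ± 0.41 in AT4G29260, all called lower, while TI1 (-1.20 ± 0.41) and AT1G17860 (-1.3 ± 0.51) were not called.

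Chloroplast proteins numbered 9, of which 8 were called lower at 400 µM. CLA1 encodes deoxyxylulose-5-phosphate synthase, which opens the plastid pathway of isoprenoid synthesis. Its libraries read 249, 240 and 295 untreated, 282, 226 and 238 at 10 µM, 215, 151 and 146 at 100 µM, and 119, 118 and 132 at 400 µM. The means of the 4 doses were in order and the 400 µM wells lay below all 100 µM wells, with a fold change of -0.60 ± 0.16 at 100 µM and -1.09 ± 0.17 at 400 µM. TIC55-II, a component of the translocon at the inner envelope membrane, had 284, 237 and 240 normalized counts untreated. It had 229, 234 and 193 at 10 µM, 165, 91.5 and 97.7 at 100 µM and 110.2, 109.5 and 87.9 at 400 µM. In this gene the wells at 100 and 400 µM overlapped, and its fold change at 400 µM was -1.31 ± 0.20.

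IPMI2, the small subunit of isopropylmalate isomerase, an enzyme of leucine synthesis and of the lengthening of methionine for glucosinolates, had the largest further drop from 100 to 400 µM. Its libraries read 74.1, 94.8 and 111 untreated, 99.5, 65.6 and 95.9 at 10 µM, 66.6, 46.9 and 52.7 at 100 µM, and 24.2, 24.6 and 34.6 at 400 µM. Every well at 400 µM was under every well at 100 µM, and the fold change went from -0.73 ± 0.22 to -1.73 ± 0.24. Its neighbouring relative AT2G43090 had -0.71 at 100 µM and -0.27 at 400 µM.

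FTSH8 encodes a protease of the thylakoid membrane that takes part in the turnover of photosystem II. It had 85.3, 115 and 108 normalized counts untreated, 152, 118 and 94.4 at 10 µM, 75.8, 25.2 and 63.7 at 100 µM, and 41.2, 68.9 and 41.5 at 400 µM. Its fold change at 400 µM was -1.04 ± 0.30. VAR2, a FtsH protease of the same complex, had -1.21 at 100 µM and -0.65 at 400 µM, with -0.02 at 10 µM. The translation factor FUG1 (-1.17 ± 0.22), the RNA-binding protein PSRP2 (-1.29 ± 0.43), the transcription factor CIA2 of chloroplast import genes (-1.12 ± 0.27) and the desaturase FADA (-1.17 ± 0.37) were called lower at 400 µM. The ABC-type protein ABCI7 (-1.22 ± 0.44) was not, and at 26.1, 3.43 and 9.88 its wells at 100 µM spread the most of the 9 in relative terms.

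Transport proteins numbered 9. SWEET11, a sucrose exporter of leaf phloem loading, was the most abundant of them. It had 429, 595 and 500.1 normalized counts untreated, 491, 413 and 409.7 at 10 µM, 387, 164 and 254 at 100 µM, and 225, 278 and 255 at 400 µM. The fold change was -0.91 ± 0.21 at 100 µM and -1.01 ± 0.21 at 400 µM, called at both. Its relative SWEET12, with an untreated mean of 14.5, had -0.67 at 10 µM and -1.28 at 400 µM.

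CAX1, which exchanges calcium for protons at the vacuole membrane, had the largest change among the transport genes. Its libraries read 109, 95.6 and 116 untreated, 69.4, 65.6 and 132 at 10 µM, 65.7, 38.9 and 30.7 at 100 µM, and 25.4, 27.1 and 35.5 at 400 µM. Here the high library at 10 µM was replicate 3, not replicate 1. The fold change was -1.21 ± 0.28 at 100 µM and -1.85 ± 0.30 at 400 µM, whereas CAX3, a close relative with an untreated mean of 24.7, had -0.77 and -0.43.

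PHO1 exports phosphate into the xylem. Its wells at 400 µM, with 30.3, 28.3 and 28.6 normalized counts, lay closer together than those of any other dose and under the 37.1, 62.9 and 36.2 at 100 µM. It had 73.1, 64.0 and 88.3 normalized counts untreated and 71.0, 53.9 and 78.5 at 10 µM, with a fold change of -1.36 ± 0.25 at 400 µM. UMAMIT41, of a family of amino acid exporters, went the other way between the high doses: 43.8, 26.3 and 23.1 at 100 µM, but 35.1, 52.9 and 57.3 at 400 µM. Its untreated libraries held 91.9, 124 and 111. The fold change was -1.78 ± 0.28 at 100 µM and -1.17 ± 0.27 at 400 µM, and the difference of 0.61 ± 0.30 between the doses was not called. Of the remaining 5, MGT9, the major facilitator AT1G72130 and the heavy-metal domain protein AT3G05920 were called lower at 400 µM, and AT3G56290 and TMN7 were not.

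Specialised metabolism and lipids gave 8 members, all called lower at 400 µM, with fold changes from -1.89 to -1.09. ALPHA DOX2, an alpha-dioxygenase that oxidises fatty acids, had 41.2, 27.2 and 44.6 normalized counts untreated, 35.9, 36.8 and 20.3 at 10 µM, 14.3, 14.9 and 7.69 at 100 µM, and 7.27, 7.38 and 14.8 at 400 µM. The wells of the high doses overlapped, at a fold change of -1.58 ± 0.35 and -1.89 ± 0.37. UGT88A1, a glycosyltransferase, was the most abundant of the group and had -1.22 ± 0.23 at 400 µM, and PRR2, a pinoresinol reductase of lignan synthesis, had -1.09 ± 0.22.

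The other 5 were cytochromes P450. CYP79F2 carries out the first step from chain-lengthened methionine to aliphatic glucosinolates. It had 34.7, 39.7 and 39.6 normalized counts untreated, 41.8, 30.0 and 37.8 at 10 µM, 25.3, 21.7 and 11 at 100 µM, and 8.48, 16.0 and 19.7 at 400 µM. Its fold change was -1.34 ± 0.33 at 400 µM, and CYP79F1, its near-identical neighbour with which reads may be split, had -1.77 at a lower untreated mean of 10.5. CYP710A2, a sterol C-22 desaturase, had -1.44 ± 0.28, but CYP710A1, its relative of the same activity, had 1.15 at 400 µM and 0.88 at 100 µM. The pair thus moved in opposite directions, from 55.8 to 20.9 normalized counts in CYP710A2 and from 101 to 224 in CYP710A1. CYP705A19, CYP81H1 and CYP94D2 lay between -1.32 and -1.25. CYP81H1 overlaps the opposite-strand gene MEE59, which had an untreated mean of 590, and whether the counting used strand is not given in the sources used here, so its count is uncertain.

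Regulators numbered 7, of which 6 were called lower at 400 µM. MYB12, an activator of flavonol synthesis genes, had 26.2, 20.6 and 28.4 normalized counts untreated, 16.7, 25.1 and 26.2 at 10 µM, 13.5, 14.9 and 18.7 at 100 µM, and 6.06, 9.84 and 10.9 at 400 µM. All 400 µM wells were under all 100 µM wells, and the fold change was -0.67 ± 0.32 and then -1.46 ± 0.35. WRKY9 had 53.4, 45.6 and 46.7 normalized counts untreated, 32.6, 54.6 and 43.6 at 10 µM, 16.9, 25.2 and 34.0 at 100 µM and 19.4, 17.2 and 10.9 at 400 µM. Its fold change at 400 µM was -1.63 ± 0.31.

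AT5G54870, annotated as an inositol-1,4,5-trisphosphate 5-phosphatase, had the second largest drop of the set and the widest error. Its libraries read 23.4, 41.9 and 26.4 untreated, 52.7, 25.7 and 27.6 at 10 µM, 21.1, 5.72 and 2.2 at 100 µM, and 3.63, 16.0 and 2.96 at 400 µM. One well at each high dose, replicate 1 at 100 µM and replicate 2 at 400 µM, stood several fold above the other wells of its dose, and the fold change was -2.07 ± 0.60. It was -3.19 without RB 400 µM replicate 2 and -1.66 without replicate 3. SPY, the O-fucosyltransferase that restrains gibberellin signalling, had -1.32 ± 0.43, the PHD finger protein AT5G22760 -1.05 ± 0.34 and AT3G52740 -1.07 ± 0.24. The protein kinase AT2G36350 (-1.12 ± 0.41) was not called.

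The other 15 members had no common role, and all 15 were called lower at 400 µM, with fold changes from -1.46 to -1.05. GLYI7, of the glyoxalase I family, had 231, 329 and 385 normalized counts untreated, 308, 282 and 199 at 10 µM, 226, 84.6 and 91.1 at 100 µM, and 92.1, 135 and 150.0 at 400 µM. AT2G21045, a rhodanese-domain protein, had 222, 209 and 198 untreated, 127, 251 and 201 at 10 µM, 127, 143 and 171 at 100 µM, and 99.3, 94.7 and 75.0 at 400 µM. These genes differed in where they dropped: GLYI7 had -1.21 ± 0.29 at 100 µM and -1.32 ± 0.30 at 400 µM, but AT2G21045 had -0.50 ± 0.21 and -1.23 ± 0.22. Without RB 100 µM replicate 1 the log2 ratio of means of GLYI7 at 100 µM was -1.83. AT5G40690, annotated as trithorax-like, had 196, 209 and 243 normalized counts untreated, 231, 174 and 167 at 10 µM, 131, 113 and 108 at 100 µM, and 72.7, 112 and 122 at 400 µM. AT1G24530, a WD40 repeat protein, had 41.2, 55.1 and 54.8 untreated, 54.3, 35.6 and 40.7 at 10 µM, 31.2, 5.72 and 5.49 at 100 µM, and 14.5, 28.3 and 12.8 at 400 µM. In AT1G24530 the 2 lowest wells of all were at 100 µM. AT2G21187, the member that is not protein coding, overlaps AT2G21185 on the opposite strand, so reads may be shared between them; its fold change was -1.32 ± 0.25.

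Between 100 and 400 µM the members differed among themselves. The mean at 400 µM was below that at 100 µM in 49 of 65, and in 11 every well at 400 µM was below every well at 100 µM: CLA1, AT2G21045, AT2G47440, PRR2, IPMI2, AT2G47485, PHO1, TPS7, AT2G45630, MYB12 and AT3G05920. In none was every well above. The share of all genes with wells so separated was not computed, and nothing is read from these counts. No member was called between these doses by edgeR, where 0.0301% of all genes were called lower; 9 of 65 and 7.89% of all genes had an unadjusted p under 0.05, and DESeq2 called 0 with no adjusted p for 33. The median fold change was -0.31, with 0.00 for all genes, and it was -0.18 without RB 100 µM replicate 1. Between 10 and 100 µM, 17 members were called lower beside 1.5% of all genes, but this count was 7 without RB 10 µM replicate 1, 31 without RB 100 µM replicate 1 and 4 without either of the other wells at 100 µM.

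How a member behaved between the high doses went with its value in 1 library. In 16 members RB 100 µM replicate 1 was over 2-fold above the mean of the other wells of its dose: GER3, GLYI7, SS2, GLP5, XTH15, AT5G23240, AT3G62820, AT4G29260, COB, PSRP2, AT1G24530, ABCI7, FADA, AT1G62770, AT5G54870 and TMN7. That is 24.6% of the set, and 5.18% of the 7219 genes with an untreated mean of 20 or more had the same excess. With all libraries, the log2 ratio of the 400 µM mean to the 100 µM mean had a median of 0.08 in these 16 and -0.33 in the other 49. Without RB 100 µM replicate 1 it was over 0 in all 16, at a median of 0.70, and over 0 in 10 of the other 49, at a median of -0.26. RB 400 µM replicate 2 was also high in the 16, by a median log2 of 0.74 over the other wells of its dose, against -0.06 in the 49. With that library left out as well, the ratio was over 0 in 14 of the 16, at a median of 0.52, and in 12 of the 49, at a median of -0.24. XTH15 (-0.11) and AT5G54870 (-0.21) were then lower at 400 µM, and TMN7 was level. Both removals were chosen after seeing the data. These genes were picked by that library, so the shift is a description, and its cause was not tested.

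**Figure D4:**
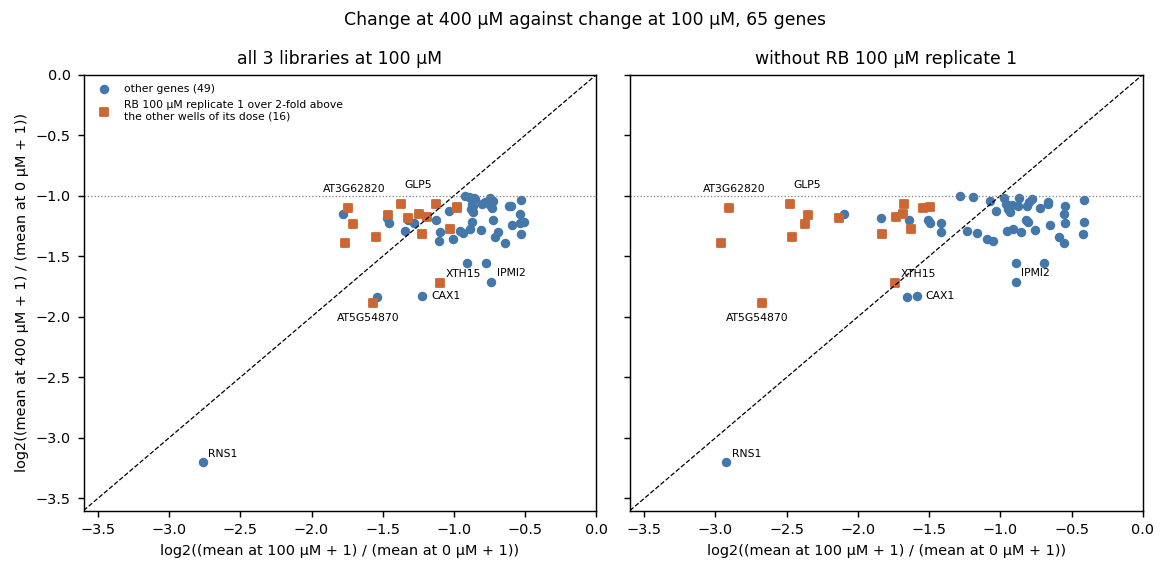
Log2 ratio of means (1 added) at 400 µM (y axis) against that at 100 µM (x axis) for the 65 genes, with all libraries (left) and without RB 100 µM replicate 1 (right); the dashed line marks equal change and the dotted line the limit of -1 at 400 µM. Squares are the 16 genes in which that library stood over 2-fold above its dose, and in the right panel all 16 lie above the dashed line, against 10 of the other 49.

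Set against gene lists of pathways, few of the members belonged to any. The base is the 7219 genes with an untreated mean of 20 or more, of which the 65 are 0.900%. Root hair genes gave 0 members of 17 in the base, although 21 of the 33 root hair genes in the table were called lower at 400 µM, with a median fold change of -4.43. The 4 root hair markers in the table summed to 136 to 152 normalized counts untreated, 24.2 to 33.1 at 10 µM, 10.1 to 14.9 at 100 µM and 0 to 1.21 at 400 µM, and so were low at the first dose already. Mineral transporters gave 1 member of 19 (PHO1), glucosinolate synthesis 1 of 15 (CYP79F2), flavonoid synthesis 1 of 8 (MYB12) and Casparian strip and suberin genes 0 of 6.

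By gene family, cytochromes P450 gave 5 members of 54 (9.26%) and xyloglucan enzymes 1 of 15 (XTH15). Pectin-related genes gave 2 of 47, AT1G62770 and AT3G62820, both annotated as inhibitors. Arabinogalactan and fasciclin-like proteins gave 1 of 27 (AGP17), and annotated transporters 3 of 119. Extensins and proline-rich proteins gave 0 of 77, glycosyl hydrolases 0 of 50 and class III peroxidases 0 of 34. Expansins gave 0 of 13 and the cellulose synthase family 0 of 9. Genes with a chloroplast term in their description gave 2 of 103, TIC55-II and CIA2. Transcription factors gave 2 of 445, MYB12 and WRKY9, and 42 of the 841 in the table were called lower at 400 µM and 96 higher. Receptor kinases gave 0 of 91 and aquaporins 0 of 19, although 12 of the 25 aquaporins in the table were called lower at 400 µM. Most of the families searched gave no member or 1. Families were found by words in the gene description, so members described otherwise, such as the peroxidase PRXCB, were missed.

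Among cell type markers, none of which is a member, those of phloem summed to 589 to 669 untreated and 687 to 784 at 400 µM, and those of the endodermis to 254 to 403 and 154 to 207. Mesophyll markers summed to 48739 to 49202 untreated, 29883 to 41558 at 100 µM and 38245 to 49492 at 400 µM. Epidermis markers summed to 3241 to 4014 untreated and 2488 to 2502 at 400 µM, and those of guard cells and the stomatal lineage to 157 to 177 and 109 to 133. No marker of these types was at 0 in all libraries of a dose. The part of such shifts in the members' values was not tested.

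In the 250 bases before the gene start, no motif searched set the members far apart from all promoters. Each was searched on both strands. The TATA box, TATAAA, was in 47.7% of the members' promoters and 46.7% of all 13213. The short heat shock element, GAANNTTC, was in 13.8% and 9.34%, and the W-box, TTGACC, in 12.3% and 12.2%. The auxin element TGTCTC was in 2 of 65 (3.08%) against 10.6%, and the telo-box, AAACCCTA, in 0 against 3.16%. A match in this window is a description and not a site.

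The members lay on all 5 chromosomes, with 19, 15, 17, 6 and 8 on chromosomes 1 to 5. Some were neighbours. TPS7, a trehalose-phosphate synthase of class II, and FTSH8 lay next to each other on chromosome 1 with no tested gene between them, and had -1.18 ± 0.31 and -1.04 ± 0.30 at 400 µM. AT2G47440, MYB12 and AT2G47485 lay in a row on chromosome 2 with 1 and then 2 tested genes between them. Their fold changes at 400 µM were -1.05 ± 0.18, -1.46 ± 0.35 and -1.32 ± 0.24, and at 100 µM -0.53 ± 0.18, -0.67 ± 0.32 and -0.53 ± 0.23. All 3 were among the 11 genes with every 400 µM well below every 100 µM well. For that count no share of all genes was computed. Of the 65 members, 15 overlap another annotated gene and 5 overlap one that is in the table. The share of all genes with such overlaps was not computed.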

How the data were processed

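RNA from 12 samples of whole seedlings was made by the authors into MARS-seq libraries, which read the 3′ ends of polyadenylated RNA. By their methods, cutadapt trimmed the reads, STAR aligned them to Araport 11 and HTSeq-count gave reads per gene; the versions in the submitters' processing notes are cutadapt 1.8.3 and, for bcl2fastq, 2.17.1.14. The deposited raw counts are reads per gene, with no filter on molecular identifiers stated for them, so PCR copies may be included and counting error is a lower bound on the error. The deposited normalized signal is that count divided by 1 size factor per library, as a division of the columns showed. The deposited regularized log2 values and the authors' own comparison columns, which hold fold changes and p-values, were not used.

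Samples were grouped by the dose in the labels. Members, gene lists and roles were chosen with earlier results of these data known. All 13307 genes, none of which has under 6 reads in its highest library, were fitted in edgeR 4.0.16 (R 4.3.3; TMM factors, dose as the only term, two-sided quasi-likelihood F test) and p-values were adjusted by the Benjamini-Hochberg method over all genes. DESeq2 1.42.0, other scalings and filters and the removal of libraries were alternatives, and the scripts were tested on simulated data. Members given in more detail were those leading by level, size of change, further change from 100 to 400 µM, place in a list or nearness to a threshold, some of them by fold change only; COB, TI1, AGP17, GLP5, PRXCB and AT1G17860 were given library values after these had been seen, and relatives of members were named beside them. Names and sequences came from RefSeq (TAIR10.1), in which 13214 genes were matched. Hydropathy was computed from translated coding sequences.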

Additional observations from a re-analysis of the deposited data

How the results depend on the processing

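The 30 members taken by the rule for named genes kept a lower level at 400 against 0 µM under every alternative run. Since membership required all their 400 µM wells to lie below the untreated ones, this was nearly fixed beforehand. Nothing is read from it. The rule itself was less steady: it took 113 genes with scaling by library totals, 38 with an untreated minimum of 50, 38 with a limit of -0.15 at 10 µM, 321 without the condition at 10 µM, 102 without that on wells at 100 µM, and 59 to 82 when 1 library was left out, with 14 members kept in all 12 of those. Without the 3 libraries that stood apart, an alternative chosen after seeing the data, it took 123 genes, 42 of them among the 65. Library totals moved the median of all genes at 400 µM from -0.04 to -0.15 and that of the members to -1.36.

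Calls at 400 against 0 µM numbered 39 to 61 with 1 library left out, against 54. At 100 against 0 µM they numbered 17 to 38, against 34, and 22 with a minimum fold of 2. At 100 against 10 µM the count of 17 became 27 with library totals, 2 with only those groups in the fit, 30 without the 3 libraries and 4 to 31 with 1 left out. At 400 against 100 µM it became 1 without the 3 libraries, where the median was -0.18, and that median ran from -0.36 to -0.18 with 1 left out. With the replicate block, calls were 55, 35, 0, 19 and 0 for 400 against 0, 100 against 0, 10 against 0, 100 against 10 and 400 against 100 µM; same-numbered libraries deviated together by more than 0.1 in 5 of 18 pairs (correlations of -0.41 to 0.42), so the numbers give no pairing. The lowest count of a member at 400 µM was 3 reads in a library, and small differences cannot be shown at such counts.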
